A study of Mus musculus with 9 samples.

Results

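The subject is 39 genes of cholesterol and fatty acid synthesis in mouse pancreatic islets. They were picked by name from the pathway, with earlier results of these data known. Each symbol matched 1 of the 25611 rows of the count table. RNA was sequenced from hand-picked islets, 3 samples of genotype Pdx1-Cre;Glis3fl/fl, labelled knockout, and 4 samples of genotype Glis3fl/fl, labelled WT and called control here, all at an age of 4 weeks. All 7 samples carried the floxed Glis3 allele, and the labelled knockouts also carried Cre recombinase under the Pdx1 promoter, which is active in the pancreatic epithelium and in beta cells. No group carried Cre without the floxed allele, so effects of Cre and of the deletion cannot be told apart. The labels do not say whether each sample came from 1 animal or from pooled animals, and p-values measure only the spread between these samples. Glis3 binding was given as 1 list of 21254 peaks from islets of Glis3-eGFP mice aged 8 weeks, pulled down with an antibody against GFP. Glis3 is a Krüppel-like zinc finger transcription factor. The comparison asks which islet genes differ between the labelled knockouts and the controls and which lie near the listed Glis3 peaks.

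Cells build cholesterol from acetyl-CoA through mevalonate, farnesyl pyrophosphate, squalene and lanosterol, and build fatty acids from the same acetyl-CoA. Both routes are switched on by the sterol regulatory element binding proteins (SREBPs), encoded by Srebf1 and Srebf2. SREBPs stay in the endoplasmic reticulum while sterols are plentiful, held there by Scap and the Insig proteins, and are cut free when sterols run low. In beta cells, membrane cholesterol affects insulin granule formation and secretion.

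Total counts ran from 12099365 to 22578480 per labelled knockout library and from 18297697 to 48054551 per control library. The insulin gene Ins2 took 7.17 to 12.2% of counts in the labelled knockout libraries, against 22.3 to 28.4% in the controls, so the share left for all other genes differed between the groups. Levels below are normalised CPM (counts scaled to a common library size) after TMM scaling, which adjusts for such shifts. Glis3 itself was not lower in the labelled knockouts, at 52.05, 52.74 and 57.75 CPM, against 39.53, 46.77, 31.23 and 33.55 CPM in the controls (log2 0.52, SE 0.14, edgeR adjusted p = 0.0257). The floxed exons have no count of their own in the table, so these values leave the deletion unchecked. The labels give no sex, but Xist reads were present in labelled knockouts 1 and 2 and in controls 1 and 2 (235 to 270 CPM) and nearly absent from the other 3 libraries (0.221 to 0.426 CPM).

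The genes of lipid synthesis were mostly lower in the labelled knockout islets. Of the 39 members, all of which passed the filter on low counts, 12 were lower and 1 was higher at an adjusted p under 0.05 (edgeR quasi-likelihood test, Benjamini-Hochberg over 14529 tested genes), and 26 did not pass. Over all tested genes, 5.25% were called lower and 8.73% higher. The 12 lower members (30.8%) stood above that share and the 1 higher member did not. Because the members were chosen with earlier results known, these shares only describe the list, and no set test was run. The median log2 fold change, labelled knockout over control, was −0.33 over the members and 0.0065 over all tested genes. It lay below 0 in 33 members, or 84.6%, against 49.5% of all tested genes. In 16 members every labelled knockout library lay below every control library, against 12.6% of tested genes, and in 2 (Elovl6 and Pmvk) every one lay above, against 14.0%. The falls were modest, between 1.37-fold and 2.39-fold for the 12 called members. The 12 were Stard4, Insig1, Acat2, Hmgcs1, Srebf2, Srebf1, Cyp51, Msmo1, Acss2, Scd2, Fdps and Fasn.

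**Figure D1:**
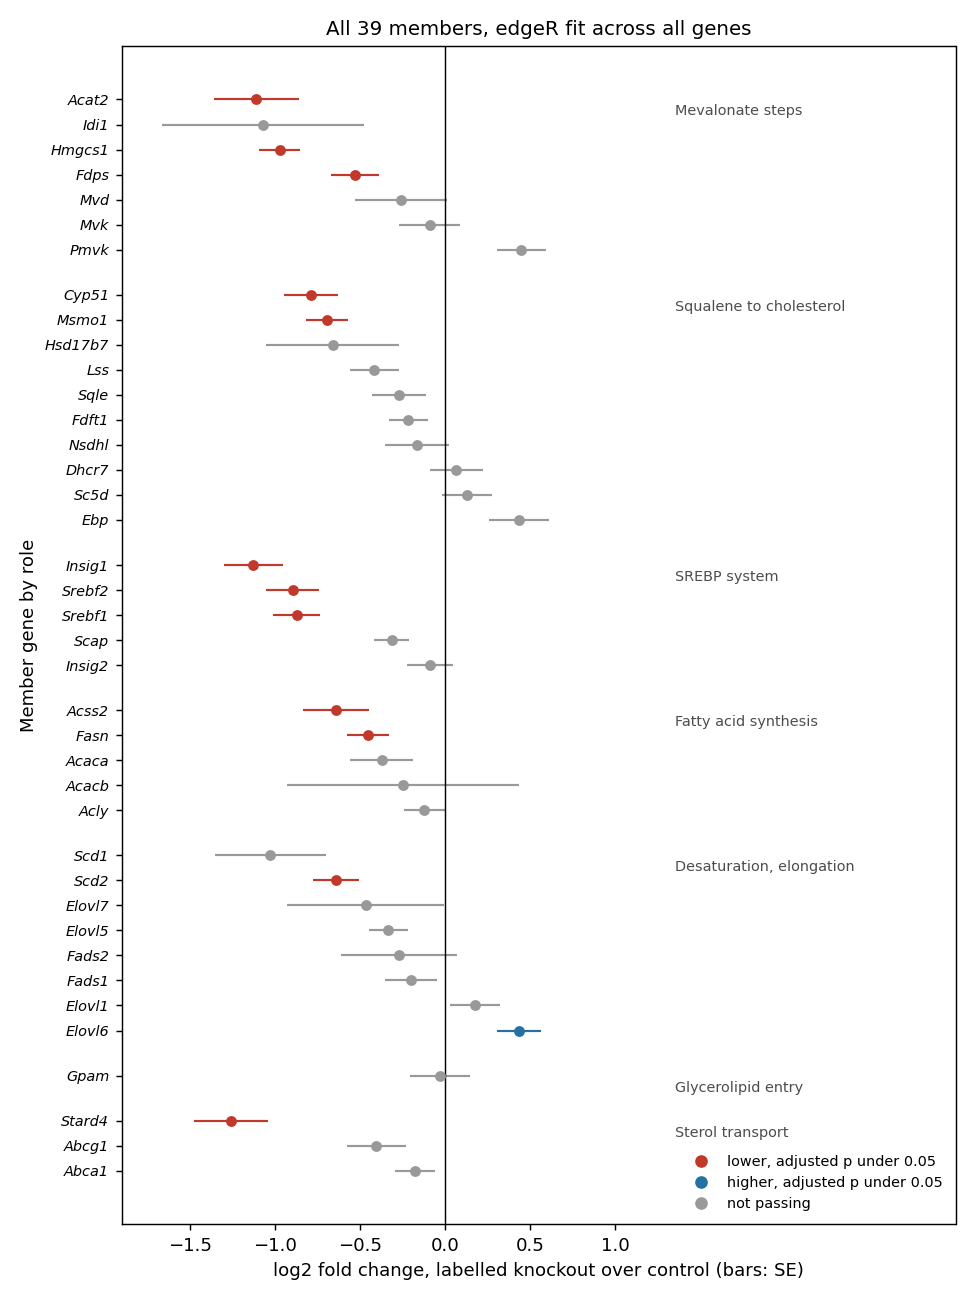
Log2 fold change (labelled knockout over control, x axis) of all 39 members grouped by role (y axis), with bars of 1 SE from the edgeR fit. Red points are the 12 members called lower, the blue point is Elovl6, called higher, and grey points did not pass. Red points number 3 of 5 in the SREBP system and 3 of 7 in the mevalonate steps, against 5.25% of all tested genes called lower.

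The counts of members depended on scaling. Scaled by library size alone, the median of all tested genes moved to 0.18, the members' median was −0.16, and 7 members were lower and 3 higher. Of all 14529 tested genes, 324 were lower and 1854 higher under library size alone, against 763 and 1268 under TMM. The difference between the members' median and that of all genes was −0.33 under that scaling and −0.34 under TMM. The 5 members that lost their lower call were Cyp51, Scd2, Fdps, Fasn and Acss2 (edgeR adjusted p of 0.0518, 0.0660, 0.224, 0.320 and 0.164).

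Islets are mixtures of cells, and in bulk RNA fewer cells of a type and less RNA per cell cannot be told apart. Of 8 beta cell markers 5 were lower and 1, Iapp, was higher, with a summed level of 189000 to 299300 CPM in the labelled knockouts and 329300 to 550300 CPM in the controls. Ins2 and Iapp are a large part of that sum and moved in opposite directions. Ins2 averaged 90320 CPM in the labelled knockouts and 272500 CPM in the controls, and Iapp averaged 85880 and 23990 CPM. The other 2 markers, Ucn3 (log2 −0.78, edgeR adjusted p = 0.0642) and G6pc2 (log2 −0.58, edgeR adjusted p = 0.0930), were lower but did not pass. The log2 fold change thus lay below 0 in 7 of the 8 beta cell markers (median −1.26), against 49.5% of all tested genes. Only Iapp went the other way. The part of beta cell RNA in the result was not tested. Acinar markers summed to 1868 to 10590 CPM in the labelled knockouts and 611 to 3901 CPM in the controls, with 0 of 10 tested markers called by edgeR or limma-voom, 1 by DESeq2 and 1, Ctrc, at an unadjusted p under 0.05. With the acinar marker mean as a covariate the same 12 members were lower and none was higher. Duct markers summed to 770 to 954 CPM in the labelled knockouts and 253 to 308 CPM in the controls, and the single called gene of 5 was Spp1, the osteopontin gene. Macrophage markers summed to 189 to 198 CPM in the labelled knockouts and 105 to 134 CPM in the controls, with 1 of 6 higher, C1qa. Stellate and fibroblast markers summed to 215 to 322 CPM in the labelled knockouts and 170 to 234 CPM in the controls, with 1 of 6 higher, Dcn. No endothelial marker (613 to 758 CPM in the labelled knockouts, 567 to 611 CPM in the controls) and no Schwann cell marker (90.2 to 104 CPM in the labelled knockouts, 76.9 to 112 CPM in the controls) was called among 6 each by edgeR, DESeq2 or limma-voom, and 0 had an unadjusted edgeR p under 0.05. Of 7 fat cell markers, Adipoq, Plin1, Lep, Cfd and Retn had 0 counts in every library and Cidec had at most 12 counts. Fabp4, which macrophages and endothelium also express, had 7.95 to 14.8 CPM in the labelled knockouts and 6.75 to 11.1 CPM in the controls and did not pass the test. Over all tested genes 5.25% were called lower and 8.73% higher, so a single call in a short marker list says little by itself. The log2 fold change lay below 0 in 0 of 10 tested acinar, 0 of 6 macrophage and 0 of 6 stellate and fibroblast markers. The medians of these lists were 1.29, 0.64 and 0.55. Values below 0 were found in 2 of 5 duct, 1 of 6 endothelial and 3 of 6 Schwann cell markers (medians 0.22, 0.19 and 0.12). The part of these cells in the result was not tested.

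Most tested genes had a Glis3 peak close by, the lipid genes among them. A peak midpoint lay within 1 kb of the 5′ end in 28 of 39 members (71.8%), against 71.2% of all tested genes. Within 10 kb the members numbered 34 (87.2%), against 80.5% of tested genes, and within 50 kb all 39, against 91.1%. Counting peaks in the gene span or up to 10 kb before it gave 36 members (92.3%), against 82.4% of tested genes. All 12 members called lower had a peak within 10 kb, as did 90.2% of the 763 tested genes called lower. These shares lay near the background, so the presence of a peak did not set the members apart.

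Among the 28 members with a peak within 1 kb, a choice that bounds the distance, the median between midpoint and 5′ end was 140 bp. In 12 of these the midpoint lay at or before the 5′ end, and in 16 after it. Of 31 members with a RefSeq promoter at that end, 16 had a peak overlapping the 250 bases before it. Peak and gene coordinates are mm10. The peak of Hmgcs1 (chr13:119689968-119690167) was centred 284 bp before the start, that of Insig1 (chr5:28071442-28071641) 129 bp after it, and that of Srebf2 (chr15:82147207-82147406) 37 bp after it. Srebf1 differed, because its nearest peak (chr11:60222753-60222952) lay 2225 bp before the start used in the count table. RefSeq lists another Srebf1 start there, whose promoter shared 79 bases with the peak, and a further peak (chr11:60210316-60210515) shared 44 bases with the promoter of a downstream start. Among members not called, the nearest peaks of Insig2 and Pmvk likewise shared 61 and 28 bases with the promoter of another RefSeq start. The nearest peak of Acss2 lay 3267 bp before the start and that of Elovl6 1534 bp after it. In 5 members, none of them called, no peak lay within 10 kb of the start used in the count table. These were Ebp (12814 bp before the start), Acaca (15375 bp before), Scd1 (19201 bp after), Gpam (28036 bp after) and Acacb (34205 bp before). RefSeq lists a further Gpam start, whose promoter (chr19:55099478-55099727) lies close to that peak of Gpam (chr19:55099103-55099302).

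**Figure D2:**
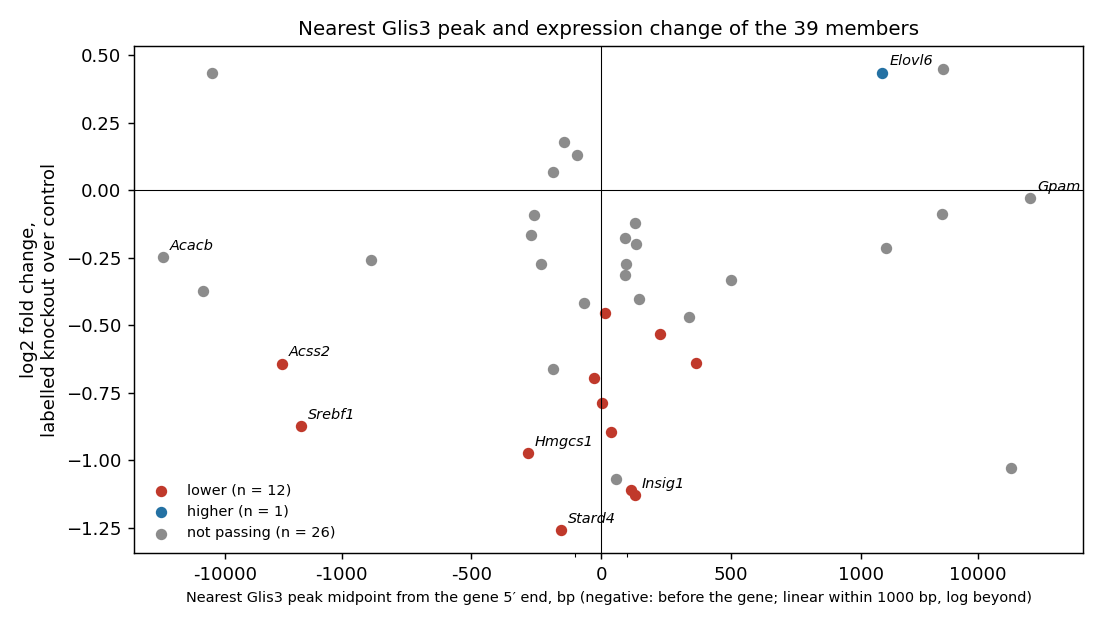
Distance of the nearest Glis3 peak midpoint from the 5′ end of each member (x axis, bp, negative before the gene, linear within 1000 bp and logarithmic beyond) against its log2 fold change, labelled knockout over control (y axis). Most members cluster within 1000 bp of the start at any fold change. That window holds 10 of the 12 members called lower (83.3%) and 18 of the 26 not passing (69.2%), against 71.2% of all tested genes.

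Promoter sequences from RefSeq (GRCm38.p6, the assembly of mm10) matched 31 of the 39 members, each with a window that ends at the 5′ end used in the count table. Those of 5 members that were called lower and whose window overlaps a Glis3 peak are printed, so that the motifs before the start of a lower lipid gene can be read beside its peak. Each is the 250 bases before the start, 5′ to 3′ on the gene's strand. Capitals mark CCAAT or its reverse ATTGG, the box bound by NF-Y, a partner of SREBPs, and in Hmgcs1 also TCACCCCAC, a match to the sterol regulatory element core TCACNCCAC. The windows are chr13:119690101-119690350 on the plus strand for Hmgcs1, chr5:4104698-4104947 on the minus strand for Cyp51, chr8:64733579-64733828 on the minus strand for Msmo1, chr15:82147019-82147268 on the plus strand for Srebf2 and chr11:120824548-120824797 on the minus strand for Fasn.
Hmgcs1: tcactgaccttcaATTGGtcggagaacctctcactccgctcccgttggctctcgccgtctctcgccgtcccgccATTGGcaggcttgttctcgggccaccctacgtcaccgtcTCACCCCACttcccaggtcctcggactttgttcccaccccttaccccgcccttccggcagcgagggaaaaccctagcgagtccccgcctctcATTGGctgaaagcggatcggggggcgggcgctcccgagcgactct
Cyp51: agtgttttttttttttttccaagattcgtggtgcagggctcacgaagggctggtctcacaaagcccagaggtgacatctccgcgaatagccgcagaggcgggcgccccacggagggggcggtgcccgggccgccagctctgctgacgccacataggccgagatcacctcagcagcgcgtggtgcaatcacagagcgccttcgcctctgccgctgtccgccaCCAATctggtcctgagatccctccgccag
Msmo1: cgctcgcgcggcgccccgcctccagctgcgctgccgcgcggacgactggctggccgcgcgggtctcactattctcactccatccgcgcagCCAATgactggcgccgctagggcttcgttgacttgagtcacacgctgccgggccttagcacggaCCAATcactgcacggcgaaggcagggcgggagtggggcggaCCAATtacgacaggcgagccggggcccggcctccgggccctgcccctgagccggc
Srebf2: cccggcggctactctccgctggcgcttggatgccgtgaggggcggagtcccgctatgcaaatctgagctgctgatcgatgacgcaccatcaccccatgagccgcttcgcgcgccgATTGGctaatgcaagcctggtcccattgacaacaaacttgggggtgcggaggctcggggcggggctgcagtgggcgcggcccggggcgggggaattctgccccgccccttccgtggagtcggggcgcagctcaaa
Fasn: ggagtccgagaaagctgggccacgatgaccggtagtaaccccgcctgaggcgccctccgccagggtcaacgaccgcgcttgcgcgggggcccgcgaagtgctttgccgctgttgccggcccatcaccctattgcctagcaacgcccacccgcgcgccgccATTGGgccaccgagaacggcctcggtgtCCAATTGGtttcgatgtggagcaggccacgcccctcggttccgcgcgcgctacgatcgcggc
The part inside a peak was 67 bases in Hmgcs1, 96 in Cyp51, 128 in Msmo1, 62 in Srebf2 and 87 in Fasn, and the rest of the printed bases lie outside it. Hmgcs1 carried its sterol element 137 bases before the start and its CCAAT boxes 237, 176 and 45 bases before it, counted from the first base of each match. In Hmgcs1 the box at 237 lies inside the peak, and the sterol element and the boxes at 176 and 45 lie outside it. Msmo1 and Fasn also held 3 CCAAT boxes each, with 2 of those in Fasn overlapping, and Cyp51 and Srebf2 held 1 each.

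Over the 41 windows of the 31 members (some genes have several starts), letters were searched on both strands. CCAAT was found in 24 windows (58.5%), against 34.6% of the 14378 windows of tested genes and 33.9% of all 32851 windows. The E-box CACGTG, which SREBPs can also bind, was found in 7 (17.1%), against 8.10% of windows of tested genes. The GC box GGGCGG was found in 29 (70.7%), against 55.8%. TCACNCCAC was found in 1 window, against 0.995%, and TGGGGGGT, the core of the reported Glis binding sequence, in 0, against 1.38%. Matches to different motifs were counted separately even where they overlapped, and a match is a run of letters, not a shown site.

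Of the 5 regulators of the pathway 3 were lower, 0 higher and 2 did not pass (median log2 −0.87). The shares of all tested genes were 5.25% lower and 8.73% higher. Srebf1 encodes the SREBP that mainly drives fatty acid genes and Srebf2 the one that mainly drives cholesterol genes. Srebf1 (Entrez 20787, chr11:60199084-60220627, minus strand) stood at 61.3, 67.7 and 48.0 CPM in the labelled knockouts, against 102.5, 121.5, 106.8 and 101.5 CPM in the controls. The fall of Srebf1 was 1.83-fold (log2 −0.87, SE 0.14, edgeR adjusted p = 6.4e-04), with no overlap of the groups and its lowest value in labelled knockout 3. The table gives 1 count per gene, so the Srebf1 isoforms cannot be told apart. Srebf2 (Entrez 20788, chr15:82147269-82204960, plus strand), whose promoter is printed above, had 53.5, 56.5 and 38.9 CPM in the labelled knockouts, against 95.0, 111, 83.5 and 78.8 CPM in the controls. The fall was 1.86-fold (log2 −0.90, SE 0.16, edgeR adjusted p = 0.00159), again without overlap and lowest in labelled knockout 3.

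Insig1, which retains the SREBP complex and is itself a target of SREBPs, had the largest fall of the regulators. Its level (Entrez 231070, chr5:28071412-28078662, plus strand) was 56.0, 31.6 and 36.2 CPM in the labelled knockouts, against 96.0, 97.6, 86.2 and 79.2 CPM in the controls. The change was 2.18-fold (log2 −1.13, SE 0.18, edgeR adjusted p = 6.5e-04), and labelled knockout 1 stood nearest to the controls. Insig2, its relative with the same retaining role, averaged 30.4 ± 3.57 CPM in the labelled knockouts and 32.4 ± 3.54 CPM in the controls (SD, n = 3 and 4; log2 −0.09, SE 0.14, edgeR adjusted p = 0.730). Scap, the escort that carries SREBPs to the Golgi, had 57.8, 57.0 and 56.8 CPM in the labelled knockouts, against 69.4, 72.2, 75.1 and 67.9 CPM in the controls. Its groups did not overlap, but the change was small and missed the threshold (log2 −0.31, SE 0.10, edgeR adjusted p = 0.0594); DESeq2 called it lower (adjusted p = 0.0298).

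**Figure D3:**
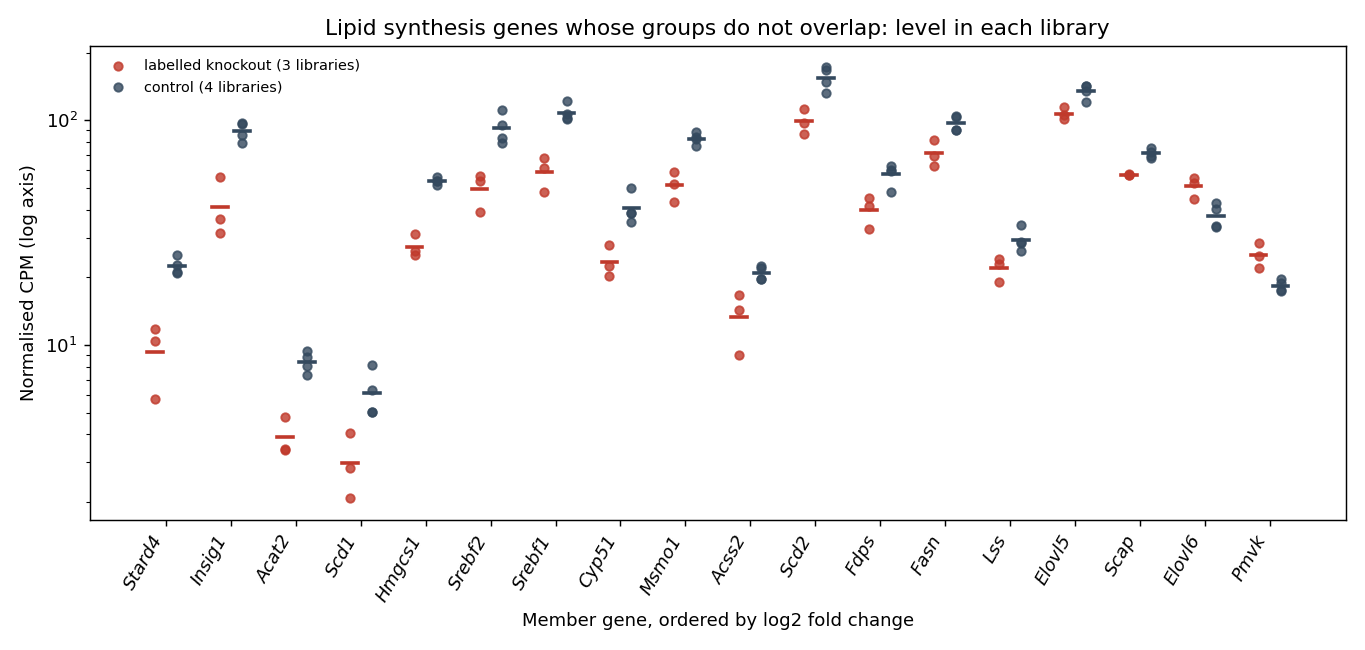
Normalised CPM (log y axis) of the 18 members whose groups do not overlap, ordered by log2 fold change (x axis), with labelled knockout libraries in red left of control libraries in dark blue and a bar at each group mean. For the 16 members from Stard4 to Scap the red points lie below the blue ones, and for Elovl6 and Pmvk above.

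Of the 7 mevalonate-stage enzymes 3 were lower, 0 higher and 4 did not pass, with a median log2 fold change of −0.53. The shares over all tested genes were 5.25% lower and 8.73% higher. Hmgcs1, the cytosolic HMG-CoA synthase at the head of the mevalonate route, had the smallest p of all members. Hmgcs1 (Entrez 208715, chr13:119690351-119708260, plus strand) stood at 31.0, 25.1 and 26.1 CPM in the labelled knockouts, against 53.8, 53.6, 51.6 and 55.6 CPM in the controls. The control values were tightly grouped, and the fall was 1.96-fold (log2 −0.97, SE 0.12, edgeR adjusted p = 9.7e-05). Acat2, the thiolase that joins acetyl-CoA units for it (Entrez 110460), had 3.42, 3.46 and 4.78 CPM in the labelled knockouts, against 7.35, 8.83, 8.04 and 9.43 CPM in the controls (log2 −1.11, SE 0.25, edgeR adjusted p = 0.00829). Acat2 groups lay well apart at this low level, though reads could be split with its near copy Acat3. Fdps, the farnesyl pyrophosphate synthase (Entrez 110196), had 45.1, 41.3 and 32.7 CPM in the labelled knockouts, against 47.8, 59.3, 62.5 and 59.9 CPM in the controls. Control 1 came close to labelled knockout 1 (log2 −0.53, SE 0.14, edgeR adjusted p = 0.0214). Fdps lost its call when labelled knockout 3 (edgeR adjusted p = 0.0735), control 2 (0.0584) or control 3 (0.0533) was left out.

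The kinases, the decarboxylase and the isomerase between Hmgcs1 and Fdps did not pass the test. Pmvk, phosphomevalonate kinase, had 28.3, 24.8 and 22.1 CPM in the labelled knockouts, against 17.5, 18.8, 17.4 and 19.6 CPM in the controls. All its labelled knockout libraries lay above all controls, but the change missed the threshold (log2 0.45, SE 0.14, edgeR adjusted p = 0.0556; 0.0417 by DESeq2). Mvk, mevalonate kinase, averaged 13.2 ± 2.237 CPM in the labelled knockouts and 14.0 ± 1.34 CPM in the controls (SD, n = 3 and 4; log2 −0.09, SE 0.18). Mvd, the decarboxylase, averaged 6.30 ± 1.92 CPM in the labelled knockouts and 7.46 ± 1.44 CPM in the controls (log2 −0.26, SE 0.27). Idi1, the isopentenyl diphosphate isomerase, was barely detected, at 0.520, 1.17 and 0.664 CPM in the labelled knockouts and 1.08, 2.86, 1.10 and 1.58 CPM in the controls. Its log2 fold change was −1.07, a little past that of Hmgcs1, with an SE of 0.59 and an edgeR adjusted p of 0.264, and its groups overlapped.

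Of the 10 enzymes from squalene synthesis to cholesterol 2 were lower, 0 higher and 8 did not pass (median log2 −0.24). Again 5.25% of all tested genes were lower and 8.73% higher. The 2 lower ones act on the methyl groups of lanosterol and its products. Cyp51, the lanosterol demethylase (Entrez 13121), had 22.4, 27.8 and 20.3 CPM in the labelled knockouts, against 38.6, 49.9, 35.1 and 38.6 CPM in the controls (log2 −0.79, SE 0.16, edgeR adjusted p = 0.00426). Msmo1, the methylsterol monooxygenase (Entrez 66234), had 58.7, 52.0 and 43.1 CPM in the labelled knockouts, against 82.5, 88.3, 76.7 and 83.9 CPM in the controls (log2 −0.70, SE 0.12, edgeR adjusted p = 0.00191). Neither gene's groups overlapped, and both were lowest in labelled knockout 3. Lss, the lanosterol synthase, also had no overlap, at 24.1, 22.9 and 19.1 CPM in the labelled knockouts and 26.2, 28.7, 34.1 and 28.5 CPM in the controls, but missed the threshold (log2 −0.42, SE 0.15, edgeR adjusted p = 0.0767).

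Sqle, squalene epoxidase and a rate-limiting step, had 93.7, 103 and 67.9 CPM in the labelled knockouts, against 116, 123, 89.7 and 96.2 CPM in the controls. Its groups overlapped (log2 −0.27, SE 0.16, edgeR adjusted p = 0.289). Within the 4 libraries with Xist reads both labelled knockouts lay below both controls, and within the 3 without them labelled knockout 3 lay below controls 3 and 4. With a term for Xist reads Sqle was lower (log2 −0.35, edgeR adjusted p = 0.0359). Fdft1, squalene synthase, averaged 55.4 ± 6.47 CPM in the labelled knockouts and 64.2 ± 3.49 CPM in the controls (SD, n = 3 and 4; log2 −0.22, SE 0.12, edgeR adjusted p = 0.247). Its span overlaps that of Ctsb on the opposite strand by 773 bp, and the strand setting of the counting is not given in the sources used here. Hsd17b7, a sterol ketoreductase, averaged 2.87 ± 1.60 CPM in the labelled knockouts and 4.45 ± 0.999 CPM in the controls (log2 −0.66, SE 0.39).

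None of the late steps passed the test. Nsdhl, which removes a carboxyl group from the sterol, had a log2 fold change of −0.17 (SE 0.19), and Dhcr7, the enzyme of the last reduction, one of 0.067 (SE 0.16). Sc5d, the sterol desaturase, had 0.13 (SE 0.15). Ebp, the sterol isomerase, had 35.5, 48.8 and 36.4 CPM in the labelled knockouts, against 22.5, 26.5, 36.7 and 34.0 CPM in the controls (log2 0.43, SE 0.18, edgeR adjusted p = 0.127). Its groups overlapped through control 3, and scaling by library size alone called it higher (log2 0.63, edgeR adjusted p = 0.0236).

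Stard4, a carrier that moves cholesterol between membranes, had the largest fall of all 39 members. It stood at 5.72, 11.8 and 10.4 CPM in the labelled knockouts, against 21.1, 25.1, 22.7 and 20.8 CPM in the controls. The fall was 2.39-fold (log2 −1.26, SE 0.22, edgeR adjusted p = 0.00154), lowest in labelled knockout 1, and Stard4 stayed called in every alternative fit. The sterol exporters Abca1 and Abcg1, targets of the oxysterol receptors LXR, did not pass. Abca1 averaged 72.8 ± 8.98 CPM in the labelled knockouts and 82.4 ± 4.15 CPM in the controls (SD, n = 3 and 4; log2 −0.18, SE 0.12, edgeR adjusted p = 0.351). Abcg1 averaged 66.9 ± 16.8 CPM in the labelled knockouts and 88.7 ± 13.9 CPM in the controls (log2 −0.40, SE 0.17, edgeR adjusted p = 0.142), and with the replicate number as a block it was called lower (log2 −0.41, edgeR adjusted p = 0.0451).

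In fatty acid synthesis 2 of 5 genes were lower, 0 higher and 3 did not pass (median log2 −0.37). Over all tested genes the shares were 5.25% lower and 8.73% higher. Fasn, the fatty acid synthase (Entrez 14104), had 69.2, 81.4 and 62.7 CPM in the labelled knockouts, against 90.6, 105, 103 and 90.8 CPM in the controls. The groups did not overlap and the fall was 1.37-fold (log2 −0.45, SE 0.12, edgeR adjusted p = 0.0257). Fasn lost its call when control 2 (edgeR adjusted p = 0.0772), control 3 (0.0608), or either of labelled knockouts 1 and 3 (0.0787 and 0.0829) was left out. Acss2, which makes acetyl-CoA from acetate (Entrez 60525), had 9.06, 14.3 and 16.7 CPM in the labelled knockouts, against 19.6, 21.9, 19.6 and 22.5 CPM in the controls (log2 −0.64, SE 0.20, edgeR adjusted p = 0.0445). Labelled knockout 1 was the lowest, and without it the log2 fold change was −0.44 (edgeR adjusted p = 0.114). The call of Acss2 was also lost without control 1, 2, 3 or 4 (0.0629, 0.106, 0.0689 and 0.0919), without labelled knockout 2 (0.0659) and with the replicate number as a block (log2 −0.65, edgeR adjusted p = 0.0518).

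Acly and the acetyl-CoA carboxylases Acaca and Acacb were not called. Acly, which splits citrate into acetyl-CoA, was among the strongly counted members, at 697, 664 and 622 CPM in the labelled knockouts and 715, 791, 723 and 648 CPM in the controls. Its groups overlapped (log2 −0.12, SE 0.12, edgeR adjusted p = 0.558). Acaca, the cytosolic acetyl-CoA carboxylase, averaged 16.5 ± 3.77 CPM in the labelled knockouts and 21.3 ± 3.06 CPM in the controls (SD, n = 3 and 4; log2 −0.37, SE 0.18, edgeR adjusted p = 0.208). Acacb, its mitochondrial counterpart, was near the detection limit, with 2 counts in labelled knockout 1 (log2 −0.25, SE 0.68), and its log2 fold change was 0.26 without that library.

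Among 8 desaturases and elongases 1 was lower, 1 higher and 6 did not pass (median log2 −0.30). With 5.25% of all tested genes lower and 8.73% higher, 1 call each way among 8 says little about this role. Scd2, a stearoyl-CoA desaturase that makes monounsaturated fatty acids (Entrez 20250), had 97.6, 113 and 87.1 CPM in the labelled knockouts, against 132, 167, 172 and 148 CPM in the controls. The groups did not overlap (a fall of 1.56-fold, log2 −0.64, SE 0.14, edgeR adjusted p = 0.00588). Scd1, the close relative that leads in liver and fat, had far fewer counts, at 2.82, 4.06 and 2.08 CPM in the labelled knockouts and 5.02, 6.28, 8.16 and 5.03 CPM in the controls. It also showed no overlap but missed the threshold narrowly (log2 −1.03, SE 0.32, edgeR adjusted p = 0.0512), and it was called by DESeq2 (0.0186) and without labelled knockout 2 (0.0238). The Scd genes are close copies and may share reads.

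Elovl6, which lengthens palmitate to stearate, was the member that rose. Its level was 55.4, 52.7 and 44.5 CPM in the labelled knockouts, against 33.8, 33.6, 40.2 and 43.0 CPM in the controls (1.352-fold, log2 0.43, SE 0.13, edgeR adjusted p = 0.0427). Labelled knockout 3 and control 4 nearly met. The call of Elovl6 was lost without control 1, 2 or 3 (edgeR adjusted p of 0.104, 0.126 and 0.0748), without labelled knockout 1 or 2 (0.136 and 0.0970) and with the acinar covariate (0.129). Elovl5, which lengthens polyunsaturated fatty acids, had 106, 101 and 114 CPM in the labelled knockouts, against 141, 120, 135 and 142 CPM in the controls, without overlap but also without a call (log2 −0.33, SE 0.12, edgeR adjusted p = 0.0726; 0.0257 by DESeq2).

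The other fatty acid modifiers and Gpam did not pass with all libraries. Fads2, the delta-6 desaturase, had 6.76, 16.9 and 4.87 CPM in the labelled knockouts, against 9.79, 12.8, 12.1 and 11.6 CPM in the controls. Labelled knockout 2 stood above all controls, and without it Fads2 was lower (log2 −1.01, edgeR adjusted p = 0.0146), against −0.27 with all libraries (SE 0.34, edgeR adjusted p = 0.659). Fads1, the delta-5 desaturase, averaged 41.8 ± 8.47 CPM in the labelled knockouts and 48.1 ± 6.38 CPM in the controls (SD, n = 3 and 4; log2 −0.20, SE 0.15). Elovl7 had 6.98, 1.12 and 3.37 CPM in the labelled knockouts, against 4.15, 5.02, 5.05 and 6.56 CPM in the controls (log2 −0.47, SE 0.46). Elovl1, an elongase of very long chains, averaged 36.9 ± 1.38 CPM in the labelled knockouts and 32.7 ± 5.76 CPM in the controls (log2 0.18, SE 0.15). Gpam, the mitochondrial acyltransferase that starts glycerolipid synthesis, averaged 14.6 ± 2.28 CPM in the labelled knockouts and 14.9 ± 1.99 CPM in the controls (log2 −0.030, SE 0.18).

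The members also differed among the labelled knockout libraries. Labelled knockout 3 was the lowest of the 3 in 25 of 39 members (64.1%), against 27.6% of all tested genes and 13.1% of all genes called lower. Labelled knockout 1 was lowest in 8 members (20.5%), among them Stard4 and Acss2, against 37.4% of tested genes, and labelled knockout 2 in 6 (15.4%), among them Hmgcs1 and Insig1, against 35.0%. Set against the control mean on the log2(CPM + 0.5) scale, the members' median was −0.28, −0.30 and −0.56 in labelled knockouts 1 to 3, while that of all tested genes was 0.0017, 0.010 and 0.00060. Labelled knockout 3 was the library of its group without Xist reads and the one with the highest Ins2 share (12.2%), and the part of either in its lower lipid genes was not tested. Without labelled knockout 3, 10 members were lower and 1 higher. Among controls the lowest was control 1 in 17 members (43.6%), against 25.3% of tested genes. Compared within libraries with Xist reads and within those without, all labelled knockouts lay below all controls in 22 members (56.4%), against 17.2% of tested genes. Among the libraries without Xist reads, the labelled knockout side was labelled knockout 3 alone.

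**Figure D4:**
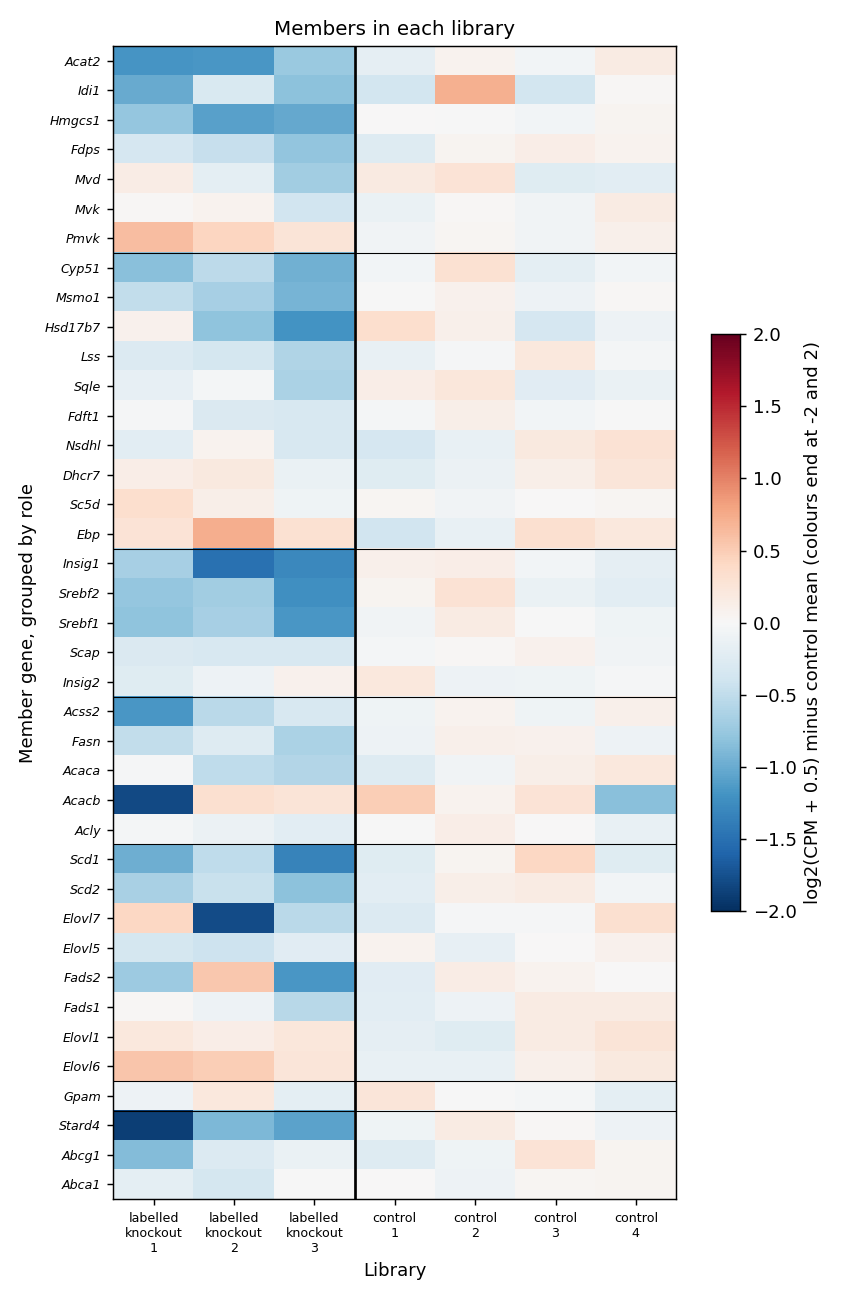
Log2(CPM + 0.5) of each member (rows, grouped by role) in each library (columns) minus its control mean, with blue below and red above and colours ending at −2 and 2. The labelled knockout columns are mostly blue, and that of labelled knockout 3 is the lowest of its group in 25 of 39 rows.

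In other lists of lipid genes most members did not pass, and in the uptake and regulator lists the few calls are to be read against the 5.25% lower and 8.73% higher of all tested genes. Of 15 genes of sterol uptake, storage and export 1 was lower and 2 higher (median log2 −0.11), with higher levels of Npc2, a lysosomal cholesterol carrier (log2 0.41, edgeR adjusted p = 0.0443), and of Lipa, the lysosomal acid lipase (0.62, edgeR adjusted p = 0.0411). None of 9 genes of SREBP cleavage and turnover (median log2 0.082) was called by edgeR, DESeq2 or limma-voom. In that list 1 gene, Erlin2, had an unadjusted edgeR p under 0.05 (log2 −0.29, adjusted p = 0.146). Of 15 LXR and other regulators 2 were lower and 1 higher (median log2 −0.13), with Usf2, an E-box factor, lower (log2 −0.59, edgeR adjusted p = 0.00435) and Ppara, a fatty acid receptor gene, higher. Ppara was at a low level, with 4.53, 4.28 and 1.64 CPM in the labelled knockouts and 0.909 to 1.03 CPM in the controls (log2 1.86, edgeR adjusted p = 0.0162).

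Genes of supply, elongation, storage and oxidation were likewise mostly not called, with 10 of 13, 11 of 12, 13 of 19 and 18 of 20 not passing, again against 5.25% lower and 8.73% higher over all tested genes. Of 13 genes of acetyl-CoA and NADPH supply 1 was lower and 2 higher (median log2 0.17): Aacs, which activates acetoacetate, fell by 0.46 on the log2 scale, while malic enzyme Me1 (log2 0.70) and Pgd of the pentose phosphate path (log2 0.49) rose (edgeR adjusted p of 0.0499, 0.0118 and 0.0328). Of 12 further elongation and desaturation genes Tecr, the last enzyme of the elongation cycle, was higher (log2 0.66, edgeR adjusted p = 0.0162) and 0 were lower (median log2 0.17). Of 19 genes of glycerolipid synthesis and lipid droplets 5 were higher and 1 lower (median log2 0.047). Bscl2, the droplet protein seipin, averaged 98.8 ± 12.4 CPM in the labelled knockouts and 49.2 ± 8.57 CPM in the controls (log2 1.01, SE 0.14, edgeR adjusted p = 3.4e-04), and the acyltransferase Agpat4 also rose (log2 0.91, edgeR adjusted p = 0.00895). Cidea, another droplet protein, rose as well (log2 2.63, edgeR adjusted p = 0.00581), with 10.9, 1.90 and 3.37 CPM in the labelled knockouts and 0.603 to 1.15 CPM in the controls. Of 20 genes of fatty acid activation and oxidation Acsl5, an acyl-CoA synthetase, rose (log2 0.74, edgeR adjusted p = 0.00333) and Hadh, a mitochondrial dehydrogenase of beta-oxidation, fell by 0.67 on the log2 scale (edgeR adjusted p = 0.00833), with a median log2 of −0.064 over the list.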

How the data were processed

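Per the submitters' processing notes, cutadapt 1.2.1, STAR 2.5, featureCounts 1.5.0-p1, Bowtie 1.2, Picard 1.110, HOMER 4.9.1 and bedtools 2.24.0 were used on mm10; settings, annotation and strand options are not given in the sources used here. For RNA, the authors deposited raw read counts per gene for 7 libraries and 1 list of 21254 peak positions, each 200 bp wide and without scores, whose use of replicates and of the input is not given. The input library was not analysed here.

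Counts were tested with edgeR 4.0.16 in R 4.3.3 (filterByExpr, TMM, robust quasi-likelihood fit on all 7 libraries, Benjamini-Hochberg over 14529 of 25611 rows, of which 988 repeat a symbol). SE is the absolute log2 fold change over the square root of F. The fit was tested on simulated data. Total counts of 12099365 to 48054551 set the precision, so members with few counts (Acacb, Idi1) are imprecise. All pairs of libraries within a group differed beyond counting noise. Named genes are all members, some cell markers and, of other lists, up to 4 called genes with the smallest p. Erlin2 is named without a call, for its unadjusted p. Members and lists were chosen with earlier results of these data known, and some genes are not reported here. Alternatives were RLE and library size scaling, 2 filters, DESeq2 1.42.0, limma-voom (limma 3.58.1), a replicate block, a term for Xist reads, an acinar covariate, leaving out the 10 most abundant genes or each library, a threshold of 0.01 and other peak windows. Replicate numbers come from the sample titles, which do not say that they pair animals. Deviations of same-numbered samples correlated at 0.173, 0.117 and 0.117, all over 0.1 but weak. Labelled knockout 3 correlated more with control 4 (0.157). The main fit did not pair the samples, and the replicate block was fitted only as an alternative. Peak midpoints were measured from the 5′ end of each gene's span in the count table.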

Additional observations from a re-analysis of the deposited data

How the results depend on the processing

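For single members, 646 alternative values kept their direction and their side of the threshold, 29 lost a call, 13 gained one and 14, all of members that were not called, changed sign. Under library size alone, 324 of all tested genes and 7 members were lower, and 1854 of all tested genes and 3 members were higher. The members' median log2 fold change was −0.16 under that scaling. Members called higher numbered 2 with a filter of 1 CPM in 3 libraries, 2 with DESeq2, 0 with the acinar covariate and 0 at an adjusted p under 0.01. The acinar covariate left 462 of all tested genes lower. At an adjusted p under 0.01, 336 of all tested genes were lower and 731 higher, and 9 members were lower. Leaving out 1 library at a time gave 9 to 13 members lower and 0 to 1 higher, 541 to 825 of all tested genes lower and 934 to 1142 higher, and a members' median of −0.40 to −0.33. Elovl6, the 1 higher member, was not called without control 1, 2 or 3 or without labelled knockout 1 or 2. With the replicate number as a block, 803 of all tested genes were lower and 1385 higher, with 12 members lower and 1 higher. The block changed the calls of Acss2 and Abcg1 and no other member's. Log2 fold changes that changed sign under library size alone were those of Mvk (0.095), Nsdhl (0.033), Insig2 (0.071), Acly (0.044) and Gpam (0.13). Dhcr7 changed sign with the acinar covariate (−0.0056), without control 1 (−0.0099) and without labelled knockout 2 (−0.0055). Gpam did so without control 1 (0.061), labelled knockout 1 (0.0057) or labelled knockout 3 (0.028), Mvk (0.016) and Fads2 (0.021) without labelled knockout 3, and Acacb (0.26) without labelled knockout 1. With any 1 library left out, these values ran from −0.19 to 0.016 in Mvk, −0.0099 to 0.14 in Dhcr7, −0.62 to 0.26 in Acacb, −1.01 to 0.021 in Fads2 and −0.17 to 0.061 in Gpam. The cause was not tested. Depth limits the precision of members with few counts, and the lowest count in any library was 2 in Acacb, 7 in Idi1, 26 in Elovl7, 37 in Hsd17b7 and 38 in Scd1.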
